A study of Mus musculus with 6 samples.

Results

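The genes described here encode regulators of the small GTPases RhoA, Rac and Cdc42 and their relatives, and were taken from a count table of long-term haematopoietic stem cells (LT-HSCs) in which the RNA-binding protein IMP1 had been switched on. They comprise every gene of the table whose symbol is Arhgap, Arhgef or Dock followed directly by a number, with an optional last letter. The rule found 70 of 21761 genes, namely 34 Arhgap, 25 Arhgef and 11 Dock genes. IMP1, which is encoded by Igf2bp1, is an RNA-binding protein of fetal tissues. Donor marrow of the CD45.2 allotype carried Rosa26 I/+;Mx1-Cre tg/+ (IMP1 group, in which I is the conditional IMP1 knock-in) or Rosa26 +/+;Mx1-Cre tg/+ (Control group), and was placed into lethally irradiated CD45.1/2 hosts. All of these chimeras then received poly(I:C), an interferon inducer that switches on the Mx1-Cre transgene, so Cre and the interferon stimulus were common to both groups. Mx1-Cre is not limited to stem cells. From each genotype 3 libraries were made, each from 200 CD45.2+ LSK CD150+ CD48- CD34- cells sorted 8 weeks later. Their full-length cDNA was amplified with a SMARTer Ultra Low kit before sequencing. The number of donors or recipients behind a library, the age of the mice and the share of cells that recombined were not given by the labels, so p-values measure the spread between these libraries.

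Small GTPases such as RhoA, Rac and Cdc42 are molecular switches that are active when bound to GTP and that organise actin, adhesion and cell polarity. Guanine nucleotide exchange factors (GEFs) load them with GTP. The Arhgef proteins do this through a Dbl-homology domain, whereas the DOCK proteins use an unrelated catalytic domain and act on Rac or Cdc42. GTPase-activating proteins (GAPs), here the Arhgap proteins, speed up GTP hydrolysis and so switch these GTPases off. In blood stem cells Rac and Cdc42 are known for their roles in homing, retention in the marrow and polarity.

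The Control libraries held 25749898 to 27338450 counts and the IMP1 libraries 50220629 to 67083116. Depth thus moved with genotype, and the labels name no batch. Igf2bp1 had at most 1 count in a Control library and 1870 to 2084 in the IMP1 libraries, in accord with the labels. All 11 LT-HSC markers were tested, and their summed level was 2095 to 2271 CPM (counts relative to the scaled library total) in Control and 2509 to 2790 CPM in IMP1 libraries. Of these markers 4 of 11 were higher at an unadjusted p under 0.05. By this measure 6.67% of all tested genes were higher and 7.63% lower, shares to be set beside the lists below as well. The B cell genes Pax5 and Ms4a1, the T and NK cell genes Cd3g and Ncr1 and the stromal or endothelial genes Col3a1, Pdgfra and Cdh5 had 0 counts in every library. Other genes of these lists were present. B cell markers summed to 71.6 to 85.5 CPM in Control and 79.9 to 114 CPM in IMP1 libraries, mostly from Cd79b at 69.2 to 105 CPM. Cd79a and Ebf1 had 1170 and 986 counts in IMP1 2 and at most 6 in any other library. Stromal and endothelial markers summed to 26.2 to 38.7 CPM against 36.2 to 43.8 CPM, mostly from Lepr at 22.99 to 30.7 CPM, and Pdgfrb was at 2.57 to 3.16 CPM in Control and 6.84 to 9.70 CPM in IMP1 libraries (unadjusted p = 0.0201, adjusted p = 0.254 in edgeR). Markers of mitosis were higher in IMP1 cells at an unadjusted p under 0.05 for 9 of 14, with summed levels of 369 to 452 CPM in Control and 534 to 1014 CPM in IMP1 libraries. Neutrophil markers summed to 273 to 315 CPM in Control and 229 to 912 CPM in IMP1 libraries, with 4 of 7 tested genes higher and 2 lower by the same measure. Mast cell and basophil markers summed to 36.1 to 45.0 CPM against 2.45 to 14.7 CPM, and T and NK cell markers to 4.04 to 7.29 CPM against 12.8 to 37.7 CPM. The former sum was in Control mostly Fcer1a, at 21.3 to 34.7 CPM against 0 to 2.37 CPM. The latter was in IMP1 libraries mostly a single gene, Klrb1c, at 0.277 to 5.56 CPM against 11.8 to 34.1 CPM. Cd8a was at 1.04 to 2.77 CPM against 0.141 to 2.89 CPM. The part of depth, mitosis and these marker genes in the values below was not tested.

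Most of these regulators had counts in these LT-HSCs. A count was found in at least 1 library of either group for 67 of the 70 genes and in every library for 55. Of the 67 genes, 5 had only 1 to 3 counts over all libraries. Levels between genes were compared as CPM, scaled by the trimmed mean of M values (TMM), per kilobase of the longest annotated transcript. On this scale the most abundant in Control cells was Arhgap15, a Rac GAP of leukocytes, at 40.5 ± 4.56 CPM per kb (SD, n = 3). Arhgap1, a GAP for Cdc42 and RhoA, followed at 39.1 ± 3.04 CPM per kb, and these 2 levels lay within each other's spread. Arhgef6, the GEF alpha-PIX that binds PAK kinases, stood at 25.2 ± 5.15 CPM per kb and Arhgef2, the microtubule-bound RhoA GEF GEF-H1, at 24.4 ± 2.18 CPM per kb. Dock2, the Rac GEF of leukocytes, stood at 20.9 ± 3.77 CPM per kb and Arhgap45, a BAR-domain GAP of blood cells, at 20.3 ± 4.49 CPM per kb. These 4 levels overlapped within 1 SD of their neighbours. Arhgap18, a GAP for RhoA, at 17.4 ± 2.86 CPM per kb, and Arhgap30, at 14.5 ± 3.84 CPM per kb, completed the 8 most abundant. Together these 8 genes held 55.8% of the summed level per kb of all 70. With the median length over a gene's annotated transcripts, 5 of the 8 remained among the 8 most abundant, and Arhgap21, Arhgef1 and Dock8 took the other places. The order changed as well, with Arhgef2 first at 147 CPM per kb, Arhgap1 next at 84.7, then Arhgef6 at 71.5 and Arhgap15 at 70.3 CPM per kb. The order of levels between genes thus depended on the length used. The median over the 56 genes that passed the low-count filter was 3.37 CPM per kb, against 6.85 CPM per kb over all 12807 genes that passed it.

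**Figure D1:**
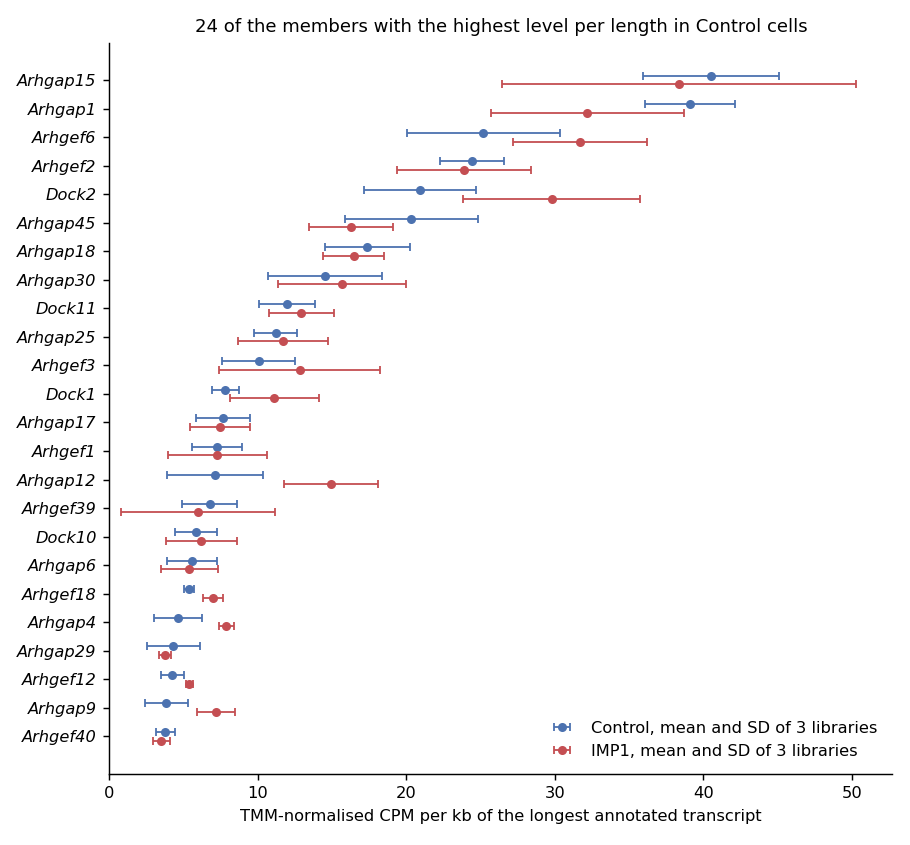
Level of 24 of the members most abundant in Control cells, in TMM-normalised CPM per kilobase of the longest annotated transcript (horizontal axis). Points are means and bars SDs of 3 libraries, blue for Control and red for IMP1; Arhgap15 and Arhgap1 lead at about 40.5 and 39.1 in Control, and the 2 groups overlap for most genes.

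The comparison asked whether re-expressed IMP1 altered the transcripts of these regulators. None of the 56 tested genes passed an adjusted p of 0.05 in edgeR's quasi-likelihood test (0 of 56), where 0.211% of all tested genes did. At an unadjusted p under 0.05, 5 were higher in IMP1 cells, where 6.67% of all tested genes were, and 1 was lower, where 7.63% were. These 6 were Arhgap28, Arhgap12, Arhgap4, Arhgap9 and Dock2, which were higher, and Dock9, which was lower. Without Control 3, IMP1 2 or IMP1 3 the number higher was 2 in each case. The 6 make up 10.7% of the tested members, below the 14.3% of all tested genes. In 8 genes all IMP1 libraries were above all Control libraries, as in 10.7% of all tested genes, and in 2 genes all were below, as in 11.1%. DESeq2 called 2 of the 56, Arhgap28 and Arhgap12, where it called 5.42% of all tested genes, and limma-voom called 0. The median log2 fold change was 0.14 over the 56 genes and 0.03 over all tested genes. Of the 56 genes 34 were positive and 22 negative, or 60.7% positive, against 52.2% of all tested genes. By class the median was 0.11 for 27 Arhgap, 0.10 for 19 Arhgef and 0.21 for 10 Dock genes. The number called per class was 0 in each. Summed over all 70 genes, the level was 1765, 1824 and 1788 CPM in the Control libraries and 1804, 2043 and 2100 CPM in the IMP1 libraries. The lowest IMP1 library thus lay between the Control libraries. In such bulk samples, fewer cells of a type and less RNA per cell cannot be told apart.

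**Figure D2:**
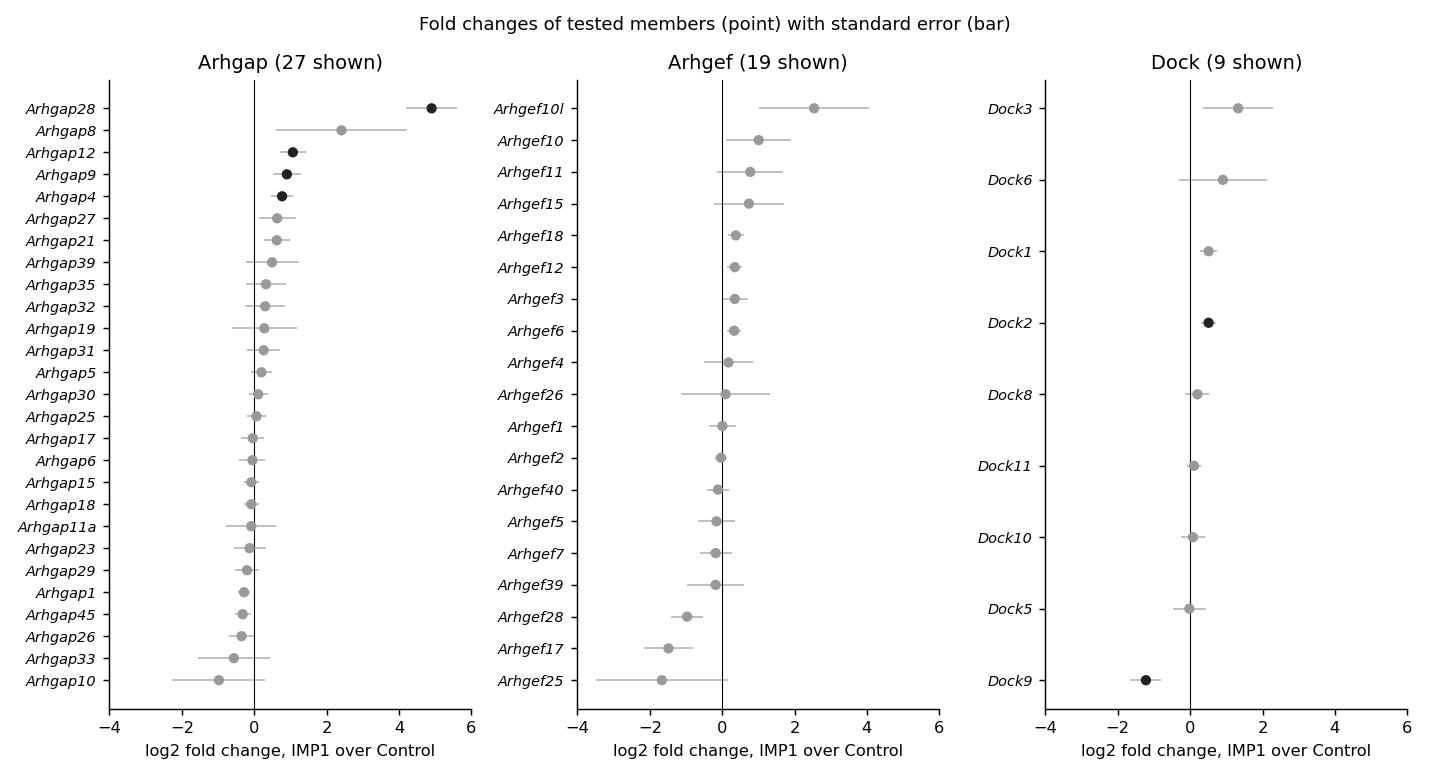
Log2 fold change of IMP1 over Control (horizontal axis) for 55 of the 56 tested members in 3 panels by class; points are edgeR estimates, bars are standard errors, and black points have an unadjusted p under 0.05. Arhgap28 stands at 4.90 and the others lie between -1.67 and 2.54.

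Among the GAPs, Arhgap28, which acts on RhoA, showed the widest separation. It was almost silent in Control cells, with 11, 7 and 20 counts, and had 1137, 1361 and 378 counts in the IMP1 libraries. Its level was 0.413, 0.277 and 0.801 CPM in Control and 17.8, 19.6 and 7.28 CPM in IMP1 libraries. Every IMP1 library was thus far above every Control library, and IMP1 3 was the lowest of its group. The means were 0.497 ± 0.272 and 14.9 ± 6.68 CPM, a fitted ratio of 29.9 (log2 fold change 4.90, SE 0.71, 95% interval 3.27 to 6.54), with an adjusted p of 0.0516, just above the threshold of 0.05. The adjusted p was 0.0441 with all libraries thinned to the smallest total, 0.0432 with a filter at a mean of 1 CPM, 0.0366 without a filter and 1.10e-09 in DESeq2. It was 0.261 in limma-voom, 0.0728 after removal of a trend on length and GC content, and 0.0945 to 0.189 when a library was left out. With a replicate block it was 0.154, and 0.227 with the block and the trend removed. It was 0.0511 with relative log expression scaling and 0.0595 without scaling. Arhgap28 was thus called in 4 of 16 alternatives. The log2 fold change was 4.62 to 5.42 over all 16 alternatives, each with an unadjusted p under 0.05. In IMP1 cells it reached 2.80 CPM per kb, still under the median of the tested members in Control cells. Of its closest relatives, Arhgap18 stood at 63.4 ± 10.5 against 60.0 ± 7.43 CPM (log2 fold change -0.08, 95% interval -0.54 to 0.39). Arhgap40 had 0 counts in all 6 libraries, which allows up to 0.0116 CPM by counting error alone.

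The sequences before the start sites of Arhgap28 and of the abundant leukocyte genes Dock2 and Arhgap15 are shown because Arhgap28 was near 0 in Control cells in which both others were high. They are the 250 bases before the first start that the RefSeq table lists for each gene, build GRCm38.p6, and lie at chr17:68004109-68004358 (minus strand), chr11:34783906-34784155 (minus strand) and chr2:43748574-43748823 (plus strand). The table lists 2 starts for Arhgap28, 1 for Dock2 and 2 for Arhgap15, and the start used in these cells is not given by counts per gene. Capitals mark matches on either strand to 4 short motifs. GGGCGTGG, which reads CCACGCCC on the other strand, is a motif of the kind bound by Kruppel-like factors. The ETS motif searched was AGGAAG. The RUNX motif was TGTGGT. The GATA motif was AGATAA, and none of the 4 contains another.
Arhgap28: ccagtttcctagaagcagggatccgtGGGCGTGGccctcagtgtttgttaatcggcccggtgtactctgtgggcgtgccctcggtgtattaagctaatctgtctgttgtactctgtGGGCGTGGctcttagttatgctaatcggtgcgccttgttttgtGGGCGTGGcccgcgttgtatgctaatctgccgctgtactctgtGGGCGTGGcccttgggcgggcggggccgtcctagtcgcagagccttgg
Dock2: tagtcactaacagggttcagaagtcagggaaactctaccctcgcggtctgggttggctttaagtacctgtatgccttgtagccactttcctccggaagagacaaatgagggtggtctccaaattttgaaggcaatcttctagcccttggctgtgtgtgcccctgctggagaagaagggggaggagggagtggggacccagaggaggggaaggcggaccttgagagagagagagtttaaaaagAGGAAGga
Arhgap15: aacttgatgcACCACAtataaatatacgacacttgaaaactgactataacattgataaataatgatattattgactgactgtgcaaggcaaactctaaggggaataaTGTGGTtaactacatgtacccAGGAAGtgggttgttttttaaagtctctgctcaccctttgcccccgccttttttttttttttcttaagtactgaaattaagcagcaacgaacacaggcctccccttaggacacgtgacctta
The Arhgap28 window held 4 matches to GGGCGTGG in a run of similar repeats, 18 CpG dinucleotides and 59.2% G and C. This motif was found in 4.79% of all 32851 windows of the same length and 4 or more in 9 of them, or 0.0274%. Dock2 and Arhgap15 each held 1 match to AGGAAG, present in 29.5% of all windows, and Arhgap15 also held 2 matches to TGTGGT, present in 14%. The GATA motif matched in none of these 3 windows (0 of 3) and in 9.99% of all. Over the 82 windows of the 52 members in the table, the shares with a match were 6.1% for GGGCGTGG, 31.7% for the ETS, 14.6% for the RUNX and 2.44% for the GATA motif. The GC box GGGCGG, not marked by capitals, was found in 50% of the members' windows and 32.7% of all windows. The Arhgap28 window held 2 matches to it. These matches describe the letters only.

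The other 3 GAPs at an unadjusted p under 0.05 were also higher in the IMP1 group. Arhgap12, a GAP for Rac, stood at 31.9, 17.6 and 46.7 CPM in Control and 50.8, 76.5 and 74.2 CPM in IMP1 libraries. The groups did not overlap, and Control 3 came close to IMP1 1. The ratio was 2.09 (log2 fold change 1.07, SE 0.36, unadjusted p = 0.0175, adjusted p = 0.244). Its adjusted p ranged from 0.0453 in DESeq2 to 0.414 without IMP1 3. Arhgap4, a GAP of blood cells with F-BAR and SH3 domains, stood at 34.9, 35.0 and 17.5 CPM in Control and 48.6, 53.5 and 47.0 CPM in IMP1 libraries. All 3 IMP1 libraries were above all Control libraries, and Control 3 was the lowest of all. Its log2 fold change was 0.77 (SE 0.30, adjusted p = 0.299). Arhgap9, a blood cell GAP for Rac and Cdc42, stood at 8.08, 16.4 and 10.1 CPM in Control and 20.02, 18.6 and 25.95 CPM in IMP1 libraries (log2 fold change 0.90, SE 0.38, adjusted p = 0.335). Its groups did not overlap, with Control 2 nearest to the IMP1 libraries. Arhgap4 overlaps Avpr2 and Arhgap9 overlaps Gli1 in the reference, but Avpr2 had at most 40 counts and Gli1 at most 1 count in any library.

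**Figure D3:**
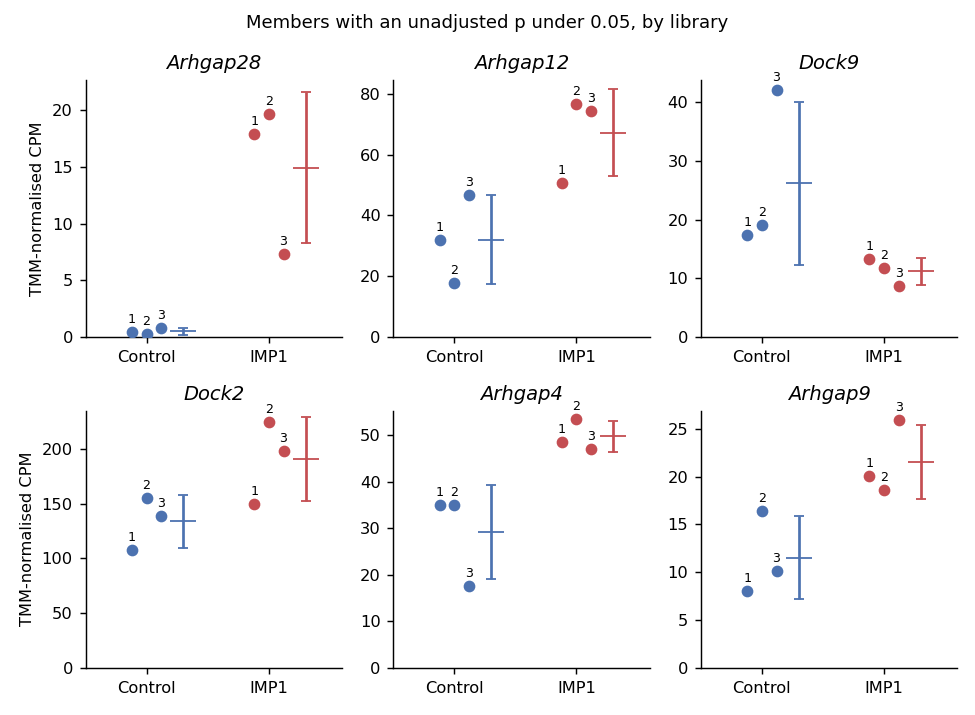
TMM-normalised CPM (vertical axis, from 0) of the 6 members with an unadjusted p under 0.05 in each library, with the replicate number above each point and the mean and SD of 3 libraries beside them. The groups do not overlap for Arhgap28, Arhgap12, Dock9, Arhgap4 and Arhgap9, and overlap for Dock2, where IMP1 1 at 149 lies below Control 2 at 155.

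The abundant GAPs gave no detectable difference. Arhgap15 stood at 174, 215 and 184 CPM in Control and 166, 134 and 243 CPM in IMP1 libraries, the latter spread around the Control range. Its log2 fold change was -0.08 with a 95% interval of -0.58 to 0.42. Arhgap1 stood at 126, 134 and 115 CPM against 97.2, 85.8 and 126 CPM (log2 fold change -0.28, 95% interval -0.68 to 0.12). For this gene 2 IMP1 libraries lay below the Control range and IMP1 3 within it. Arhgap45 averaged 80.7 ± 17.8 CPM in Control against 64.6 ± 11.1 CPM in IMP1 cells, with a 95% interval of -0.83 to 0.19 for the log2 fold change. Arhgap30 stood at 72.7 ± 19.2 and 78.5 ± 21.5 CPM, with an interval of -0.51 to 0.73. The values of both genes overlapped between the groups. The following GAPs were named outside the fixed rule. The p190 GAPs Arhgap5 and Arhgap35, which act on RhoA, had log2 fold changes of 0.20 (SE 0.29) and 0.32 (SE 0.56). Arhgap25, a Rac GAP of phagocytes, stood at 42.7 ± 5.51 against 44.6 ± 11.6 CPM. Its relatives Arhgap22 and Arhgap24 had 1 and 3 counts over all libraries. Arhgap11a, a GAP of dividing cells, stood at 3.49, 11.8 and 18.7 CPM against 6.53, 18.9 and 6.65 CPM, so its groups overlapped, whereas the summed mitosis markers above did not.

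Among the 19 tested Arhgef genes, 0 had an unadjusted p under 0.05. Of these 11 were positive and 8 negative, or 57.9% positive, against 52.2% of all tested genes. The PIX proteins bridge PAK kinases to Rac and Cdc42. Arhgef6, the more abundant of them, stood at 125, 132 and 88.1 CPM in Control and 165, 145 and 124 CPM in IMP1 libraries. IMP1 3 fell within the Control range, and its log2 fold change of 0.33 had an SE of 0.19 (adjusted p = 0.493). Arhgef7, beta-PIX, stood at 17.3 ± 9.83 against 15.3 ± 2.30 CPM. Arhgef2 stood at 106, 121 and 102 CPM against 86.8, 108 and 127 CPM, a log2 fold change of -0.03 with a 95% interval of -0.44 to 0.37. The remaining Arhgef genes are named outside the fixed rule. Of the RhoA GEFs that couple G protein receptors to RhoA through an RGS-homology domain, Arhgef1 stood at 30.8 ± 7.20 against 30.9 ± 14.1 CPM and Arhgef12 at 45.5 ± 8.36 against 58.0 ± 2.70 CPM, whose groups did not overlap (adjusted p = 0.507). With the length and GC trend described below removed, the log2 fold change of Arhgef12 went from 0.35 to 0.03, and its groups overlapped. Arhgef11 was low, at 1.96 ± 1.44 against 3.36 ± 0.728 CPM. Arhgef18, another RhoA GEF, stood at 26.7, 29.96 and 28.3 CPM in Control and 39.9, 37.6 and 32.9 CPM in IMP1 libraries. These groups did not overlap, and both were tight, but the log2 fold change of 0.38 (SE 0.22) had an adjusted p of 0.505. A pair of further RhoA GEFs had lower means in IMP1 cells. Arhgef17 stood at 5.33, 6.81 and 6.04 CPM in Control and 2.23, 3.22 and 1.04 CPM in IMP1 libraries without overlap (log2 fold change -1.49, SE 0.68, adjusted p = 0.378). Arhgef28 stood at 26.5, 11.7 and 22.2 CPM against 12.7, 7.09 and 11.02 CPM, where Control 2 lay within the IMP1 range (-0.97, SE 0.43, adjusted p = 0.362).

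Among the 10 tested Dock genes, 8 were positive and 2 negative, where 52.2% of all tested genes were positive. With the length and GC trend described below removed, the median log2 fold change of the Dock genes went from 0.21 to -0.0148. Those of the DOCK-A group, which act on Rac together with ELMO proteins, are Dock1, Dock2 and Dock5. Dock2 stood at 108, 155 and 139 CPM in Control and 149, 225 and 199 CPM in IMP1 libraries. IMP1 1 fell between 2 Control libraries, so the groups overlapped. The log2 fold change was 0.51 (SE 0.20, unadjusted p = 0.0311, adjusted p = 0.296), and 0.38 (unadjusted p = 0.0837) after removal of the length and GC trend described below. Dock1 stood at 56.5, 56.7 and 45.9 CPM against 61.0, 99.1 and 66.8 CPM, with no overlap and a log2 fold change of the same size (0.51, SE 0.23, adjusted p = 0.377). After removal of that trend the value of Dock1 was 0.34 (unadjusted p = 0.166), and its groups overlapped. Dock1 overlaps Insyn2a, which had 106 to 559 counts in Control and 639 to 1423 in IMP1 libraries, and Dock2 overlaps Insyn2b, which had 0 to 13 and 71 to 245 counts. These overlaps are of whole gene spans in the reference. Whether the pairs share exons, and how their reads were assigned, was not tested. Dock5 stood at 19.4 ± 9.61 against 19.1 ± 7.37 CPM.

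The DOCK-D group, whose members act on Cdc42, held the single Dock gene with a lower value at an unadjusted p under 0.05. Dock9 stood at 17.4, 19.0 and 42.2 CPM in Control and 13.2, 11.7 and 8.69 CPM in IMP1 libraries. All IMP1 libraries were below all Control libraries, and Control 3 was more than the sum of the other 2. The log2 fold change was -1.22 (SE 0.43, unadjusted p = 0.0211, adjusted p = 0.259). Without Control 3 it was -0.70 (unadjusted p = 0.115), and after removal of the length and GC trend -1.48 (unadjusted p = 0.00893). The groups overlapped for both relatives. Dock11 stood at 94.4, 73.4 and 71.9 CPM against 96.9, 92.1 and 69.4 CPM (log2 fold change 0.11, 95% interval -0.34 to 0.56). Dock10 stood at 42.2 ± 10.2 against 44.6 ± 17.3 CPM (0.08, 95% interval -0.66 to 0.82), and the difference between Dock9 and these genes was not tested. Of the DOCK-C group, named outside the fixed rule, Dock8, known for its role in lymphocytes, stood at 24.4 ± 6.19 against 28.1 ± 7.86 CPM. Of the DOCK-B group, Dock3 was low, at 2.16 ± 2.46 against 5.42 ± 2.61 CPM, and Dock4 had 3, 1 and 2 counts in Control and 42, 0 and 0 counts in IMP1 libraries.

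The scarce regulators came and went between libraries of the same genotype. The filter left out 14 of the 70 genes. Arhgap36, Arhgap40 and Arhgef38 had 0 counts in every library, and 5 others had 1 to 3 counts in all. Among the other 6, Arhgap42 had 154 counts in Control 2 and 0 in Control 1 and Control 3, and 33, 1 and 0 counts in the IMP1 libraries. Arhgef19 had 0, 42 and 1 counts in Control and 0 in the IMP1 libraries. Arhgap44 had 0 counts in the Control and 28, 0 and 8 counts in the IMP1 libraries. The scatter also reached tested genes. Arhgef10l had 2, 23 and 19 counts in Control and 263, 4 and 312 counts in IMP1 libraries, and its log2 fold change of 2.54 had an SE of 1.51. Arhgap8 had 56, 0 and 0 counts against 219, 146 and 296 counts, and its 2.41 had an SE of 1.81. The coefficient of variation between libraries of a group had a median of 32.3% in Control and 29.7% in IMP1 cells over the tested members, against 25.4% and 24.7% over all tested genes. It was over 50% for 16 of the 56 in Control and 15 of the 56 in IMP1 cells. By contrast it was 7.78% in Control for the abundant Arhgap1 and 8.92% for Arhgef2.

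The members share long transcripts, which the rule did not use. The longest annotated transcript had a median of 5428 bases over the 56 tested members, and 3376 bases over all tested genes with a known length. The Dock genes were the longest, with a median of 7163 bases. Fold changes of all genes moved with length in these libraries. In 5 bins of equal size, the median log2 fold change over all genes went from -0.13 in the shortest to 0.21 in the longest transcripts. The longest bin held 31 of the 56 members, whose median was 0.20, beside 0.21 for all its genes. The next bin held 15 members, with a median of 0.11 beside 0.13. With a smooth trend on length and GC content removed from each library, the median of the 56 members was -0.03, beside 0.03 for all genes. The 8 higher and 2 lower genes without overlap became 5 and 3, where 1351 and 1236 of all 12807 tested genes were so. Of the 8, Dock1, Arhgap12 and Arhgef12 overlapped between the groups in that fit. At an unadjusted p under 0.05, 3 members were higher and 3 lower, where 749 and 815 of all 12807 tested genes were. Arhgap28 stood at 4.80 in that fit, Arhgap12 at 0.90 (unadjusted p = 0.0427) and Arhgap9 at 1.02 (unadjusted p = 0.0283), while Arhgap4 and Dock2 no longer had an unadjusted p under 0.05. Dock9, Arhgef17 and Arhgef28 were the 3 lower genes.

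**Figure D4:**
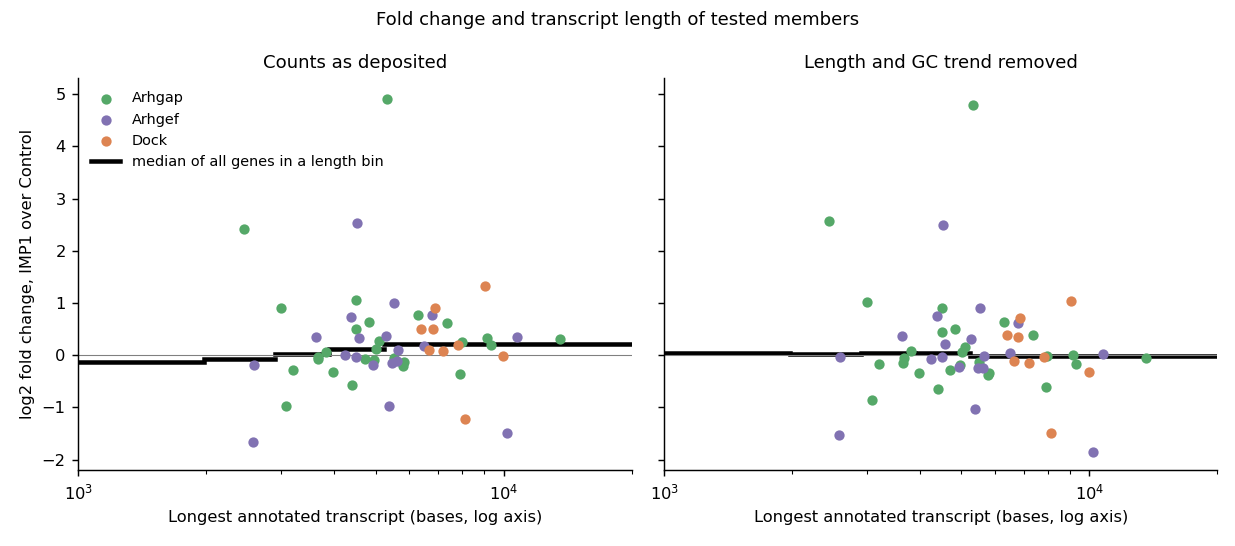
Log2 fold change of IMP1 over Control (vertical axis) against the longest annotated transcript in bases (horizontal log axis) for 55 of the 56 tested members, coloured by class, from the counts as deposited (left) and after removal of the length and GC trend (right). Black lines are medians of all tested genes in 5 length bins, which climb from -0.13 to 0.21 on the left and lie between -0.01 and 0.05 on the right.

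The partners of these regulators were taken from lists of genes of the same pathway. Of 20 GTPases of the RhoA, Rac and Cdc42 family 17 were tested, with 0 higher and 3 lower by unadjusted p under 0.05 and 0 past the adjusted threshold. Cdc42 stood at 1075, 1187 and 1214 CPM in Control and 860, 754 and 916 CPM in IMP1 libraries. These groups were well apart (log2 fold change -0.46, SE 0.10, adjusted p = 0.0948). Rhof stood at 66.0 ± 20.1 against 34.4 ± 10.3 CPM and Rhog at 101 ± 17.0 against 75.5 ± 3.19 CPM, while the Rac isoform of blood cells, Rac2, stood at 714 ± 95.4 against 653 ± 81.7 CPM. RhoGDI proteins hold these GTPases in the cytosol. Arhgdib, the form of blood cells, was the single gene of these 6 lists past the adjusted threshold and fell from 1804 ± 157 to 870 ± 60.3 CPM (adjusted p = 0.0183), and this call was kept in 10 of 16 alternatives. Its relative Arhgdia stood at 272 ± 7.54 against 219.7 ± 52.2 CPM.

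Elmo1, the partner of the DOCK-A proteins, stood at 195, 265 and 194 CPM in Control and 303, 275 and 352 CPM in IMP1 libraries. The groups did not overlap, and the log2 fold change of 0.51 (SE 0.16, adjusted p = 0.218) was close in size to those of Dock1 and Dock2. After removal of the length and GC trend Elmo1 was at 0.38 (adjusted p = 0.396) and its groups overlapped, beside 0.34 for Dock1 and 0.38 for Dock2. Whether these genes changed together was not tested. The DOCK partner list of 6 had 1 of 5 tested genes higher and 0 lower when judged by unadjusted p under 0.05. Of 33 tested effectors of these GTPases 6 were higher and 2 lower by that measure, beside 6.67% higher and 7.63% lower of all tested genes, with 0 past the adjusted threshold. Rock2, the kinase downstream of RhoA, stood at 75.6, 105 and 82.8 CPM in Control and 190.4, 200.5 and 146 CPM in IMP1 libraries, without overlap (log2 fold change 1.03, SE 0.18, adjusted p = 0.0750). The protein kinase gene Pkn3 stood at 4.28 ± 2.39 against 24.03 ± 8.80 CPM and the rhotekin gene Rtkn at 7.12 ± 2.61 against 26.9 ± 11.7 CPM. In the other direction, Abi1, a subunit of the WAVE complex, stood at 129 ± 24.5 against 80.7 ± 10.8 CPM and Cdc42ep4 at 8.83 ± 2.94 against 2.12 ± 1.21 CPM. Of 25 tested RhoGAP genes without a numbered symbol 6 were higher and 1 lower, and of 35 such RhoGEF genes 5 were higher and 2 lower, beside the same shares of all genes (6.67% and 7.63%) and again with 0 past the adjusted threshold. The medians of these lists were 0.36 and 0.21 on the log2 scale, beside 0.03 for all tested genes. Their transcripts are long as well, with median lengths of 5253 and 6080 bases, and after removal of the length and GC trend the medians were 0.24 and 0.08. The counts in that fit were 6 higher and 2 lower for the RhoGAP list and 1 higher and 2 lower for the RhoGEF list. Of all 12807 tested genes 749 were higher and 815 lower in that fit.

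**Figure D5:**
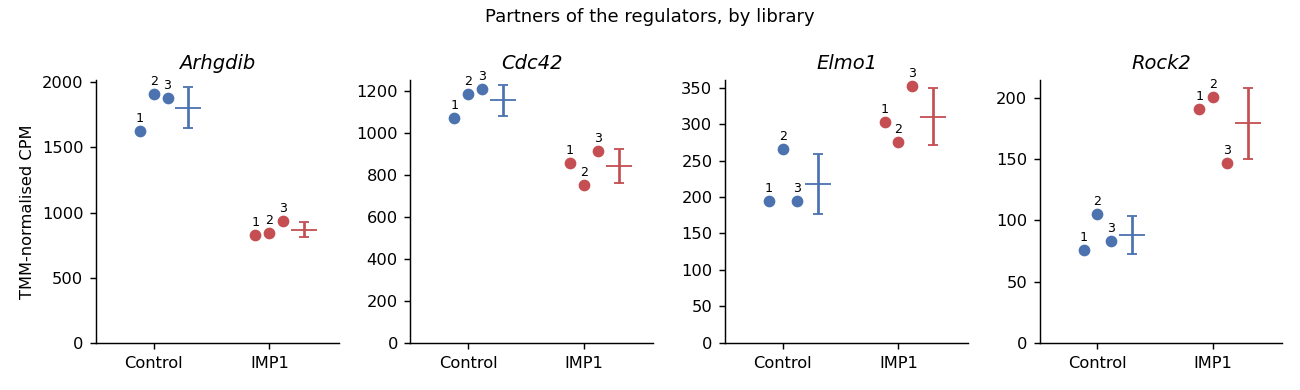
TMM-normalised CPM (vertical axis, from 0) of Arhgdib, Cdc42, Elmo1 and Rock2 in each library, with replicate numbers above the points and the mean and SD of 3 libraries beside them. The groups do not overlap for any of the 4 genes; Arhgdib and Cdc42 are lower and Elmo1 and Rock2 higher in IMP1 libraries, and of these Arhgdib passed the adjusted threshold.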

How the data were processed

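The deposited table holds unnormalised counts, whole numbers of reads for each Entrez gene and library. TopHat2 2.0.10 and mm9 appear among the tools and builds of the submitters' processing notes. How the authors counted reads, and whether strand was used, is not given in the sources used here. How reads of overlapping genes were assigned is thus not known. Symbols came from the RefSeq table of GRCm38.p6, which matched 21615 of 21761 identifiers, and lengths and GC content from GENCODE M21 transcripts (GRCm38) for all 70 members. Since the build differs from mm9, the reference gave names, lengths, overlaps and promoter windows only. Counts were fitted for all genes together with edgeR 4.0.16 in R 4.3.3 (TMM scaling, filterByExpr, glmQLFit and glmQLFTest, genotype as the single term, two-sided), with Benjamini-Hochberg adjustment over 12807 genes and calls at 0.05. SEs were derived from the F statistic, and 95% intervals from the t distribution with the fit's degrees of freedom. Lists of values are in the order of replicates 1 to 3.

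Members were chosen by symbol, and 1 of them is not reported here by name. Those named in full were past either threshold (at most 10 per direction by unadjusted p), the 8 most abundant per length in Control cells, or relatives of these in fixed subfamily lists. Of the pathway lists, at most 5 genes at an unadjusted p under 0.05 and the 2 most abundant were eligible. The members and lists were chosen with earlier results of these data known. Alternatives were DESeq2 1.42.0, limma-voom (limma 3.58.1), other scalings and filters, thinning to 25749898 counts, removal of a loess trend (span 0.4) on length and GC content, a replicate block and each library left out. The fit was tested on simulated data. Libraries of a group differed beyond sampling noise, with a chi-square per degree of freedom of 62.9 or more.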

Additional observations from a re-analysis of the deposited data

How the results depend on the processing

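Of the 56 members, 2 were called with DESeq2 (Arhgap28 and Arhgap12) and 1 (Arhgap28) without a filter, with a filter at a mean of 1 CPM and with thinned libraries. None was called (0) under the other 12 alternatives. At an unadjusted p under 0.05, 2 were lower with DESeq2, limma-voom or no filter. Removing the length and GC trend gave 3 higher and 3 lower, a median of -0.0271, and 5 were higher without overlap. In that fit 12.2% of all tested genes had an unadjusted p under 0.05. The replicate numbers did not pair the libraries (correlations of same-numbered deviations -0.01 to 0.03). A replicate block gave 4 higher and 1 lower, a median of 0.11 and 0 calls, where it called 4 of all genes against 27 without it. With the block and the trend removed, 3 were lower, the median was -0.0797 and 5 were higher without overlap. When each library was left out in turn, 0 members were called, 2 to 7 were higher and 0 to 2 lower at an unadjusted p under 0.05, 8 to 14 were higher and 2 to 8 lower without overlap, and the median was 0.15 to 0.24. The fewest, 2 higher, were found without Control 3 (0 lower), IMP1 2 (2 lower) or IMP1 3 (2 lower), and without Control 2 there were 7 higher and 2 lower. Higher genes without overlap numbered 13 without Control 2 and 14 without IMP1 1, and lower ones 4 without Control 3 or IMP1 2 and 8 without IMP1 3, where fewer libraries make overlap less likely. By the median transcript length, 5 of the 8 most abundant members stayed in that group.

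Signs changed for genes near 0. Without scaling, which put the median of all genes at 0.12, log2 fold changes were 0.0150 for Arhgap15, 0.0150 for Arhgap18, 0.0618 for Arhgef2 and 0.0679 for Dock5. With the trend removed they were -0.15 for Dock10 and -0.12 for Dock11, and with the block besides -0.20 and -0.12. Dock5 was 0.0445 in limma-voom and 0.0488 with the replicate block. Leaving out a library gave -0.35 to 0.10 for Arhgap15, -0.204 to 0.0296 for Arhgap18, -0.14 to 0.28 for Arhgap30, -0.17 to 0.10 for Arhgef2, -0.45 to 0.38 for Arhgef7, -0.29 to 0.26 for Dock10 and -0.38 to 0.41 for Dock5. The cause of these changes was not tested. No direction is given for these genes. With 200 cells per library and amplified reads without molecular identifiers, counts of scarce members are less precise than their depth implies.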
